A study of Mus musculus with 2 samples.

Results

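The genes for potassium, sodium and calcium channels were followed in mononuclear cells of the brain, in CD47 KO mice and in their WT counterparts. The group was selected on the signals themselves, by gene symbol and brightness: every probe set with a single gene symbol of a *Kcn*, *Scn* (with an *a* or *b* ending) or *Cacn* gene was taken, a gene was kept if any of its probe sets reached the median signal of its array on at least 1 array, and its probe set of highest mean signal over both arrays stood for the gene. Of 119 channel genes named on the array by 252 probe sets, 78 were kept and 41 stayed below the median on both arrays. The same rule kept 11695 of all 18193 named genes. The 78 comprised 50 potassium channel genes, 8 sodium channel genes, 19 calcium channel genes and *Kcnq1ot1*, a long non-coding RNA that shares the symbol stem without coding for a channel subunit. The choice used the mean signals, so a member near the limit had to be brighter on one of the arrays, and no test was made on the group.

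The study compared mice lacking CD47, the membrane protein that engages SIRPα on microglia, with WT mice. Cells were freed from whole brain with collagenase and DNase I and taken from the interface of a Percoll step gradient, without a sort for any cell type. RNA of 7 WT mice aged 10 to 15 wks was pooled, and so was RNA of 6 CD47 KO (*Cd47* null) mice aged 12 to 16 wks. The labels give all animals as male. The KO was not limited to a cell type, so all cells of the KO animals carried the null genotype. An amount of 20 ng of total RNA per pool went into whole-transcriptome amplification, and 1 Affymetrix mouse genome GeneChip was used for each genotype. With 1 array per genotype there was no replicate, so the spread between animals is unknown, no test could be made and every difference below compares 2 pools.

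Ion channels are membrane proteins that let selected ions cross down their gradients. In neurons, voltage-gated sodium channels carry the rising phase of the action potential, voltage-gated potassium channels (Kv) end it and set firing patterns, and voltage-gated calcium channels couple it to transmitter release and gene expression. Inwardly rectifying (Kir) and K2P potassium channels hold the resting potential and clear potassium in glia, and a small set of potassium channels, among them the K2P channel THIK1, is known for steering the surveillance and cytokine release of microglia. Auxiliary subunits (β, α2δ, γ, KChIP and KCNE proteins) set the traffic and gating of the pores.

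Signals were MAS5 intensities, on which each array had been scaled to the same trimmed mean. The median signal over the 45037 non-control probe sets was 161 for WT and 146 for CD47 KO. All 5 *Cd47* probe sets were dimmer in CD47 KO, with Log2 ratios (KO/WT, the log base 2 of the CD47 KO signal over the WT signal) from -1.86 to -1.45. Their KO signals of 334 to 1688 remained above the array median, and the position of these probes against the targeted exons was not known. In what follows, a value in parentheses after a pair of signals is the Log2 ratio, and the other probe sets of a gene are those that reached the array median on at least 1 array. Where such a probe set reached it on 1 array alone, it was kept through that array, which fixes its direction. *Xist*, the RNA of the inactive X chromosome, reached 7069.9 in WT and 6529.6 in CD47 KO on its brightest probe set, which goes against the male label of both pools. The Y-linked *Eif2s3y* (189 and 461) and *Kdm5d* (162 and 307) also reached the median of both arrays on their brightest probe sets, which goes with the male label. The other *Kdm5d* probe sets and all those of the Y-linked *Uty* (48.9 and 101 on the brightest) lay below both medians. The signals thus did not settle the sex of the pools. The labelled cell type was checked by 14 microglia markers. Of these, 13 were kept, none was near 0, and the sum of their signals was 100343 in WT and 114656 in CD47 KO. The 14 neuron markers were all kept as well, with sums of 52622 and 54810.0, so that the pools held RNA of neurons beside that of microglia. In such mixed RNA, fewer cells of a type and less RNA per cell cannot be told apart.

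The channel genes as a group were evenly divided between the pools. Of the 78, 39 were higher and 39 were lower in CD47 KO, with a median Log2 ratio of 0.01, beside a median of 0.00 and 50.3% higher over all 11695 kept genes. The interquartile range of the channel genes lay between -0.35 and 0.35, and that of all genes between -0.32 and 0.26. In 57 channel genes (73.1%) the signals of the 2 arrays lay within 1.5-fold of each other, beside 76.2% of all genes. More than 2-fold, 3 channel genes were higher and 4 were lower in CD47 KO. These counts are 3.85% and 5.13% of the members, and the background over all kept genes was 3.56% higher and 5.46% lower. The members therefore crossed 2-fold about as often as any kept gene did. Potassium channel genes (26 higher, 24 lower, median 0.03), sodium channel genes (4 and 4, median -0.03) and calcium channel genes (9 and 10, median -0.01) were divided in the same way, and all 7 genes past 2-fold were potassium channel genes.

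**Figure D1:**
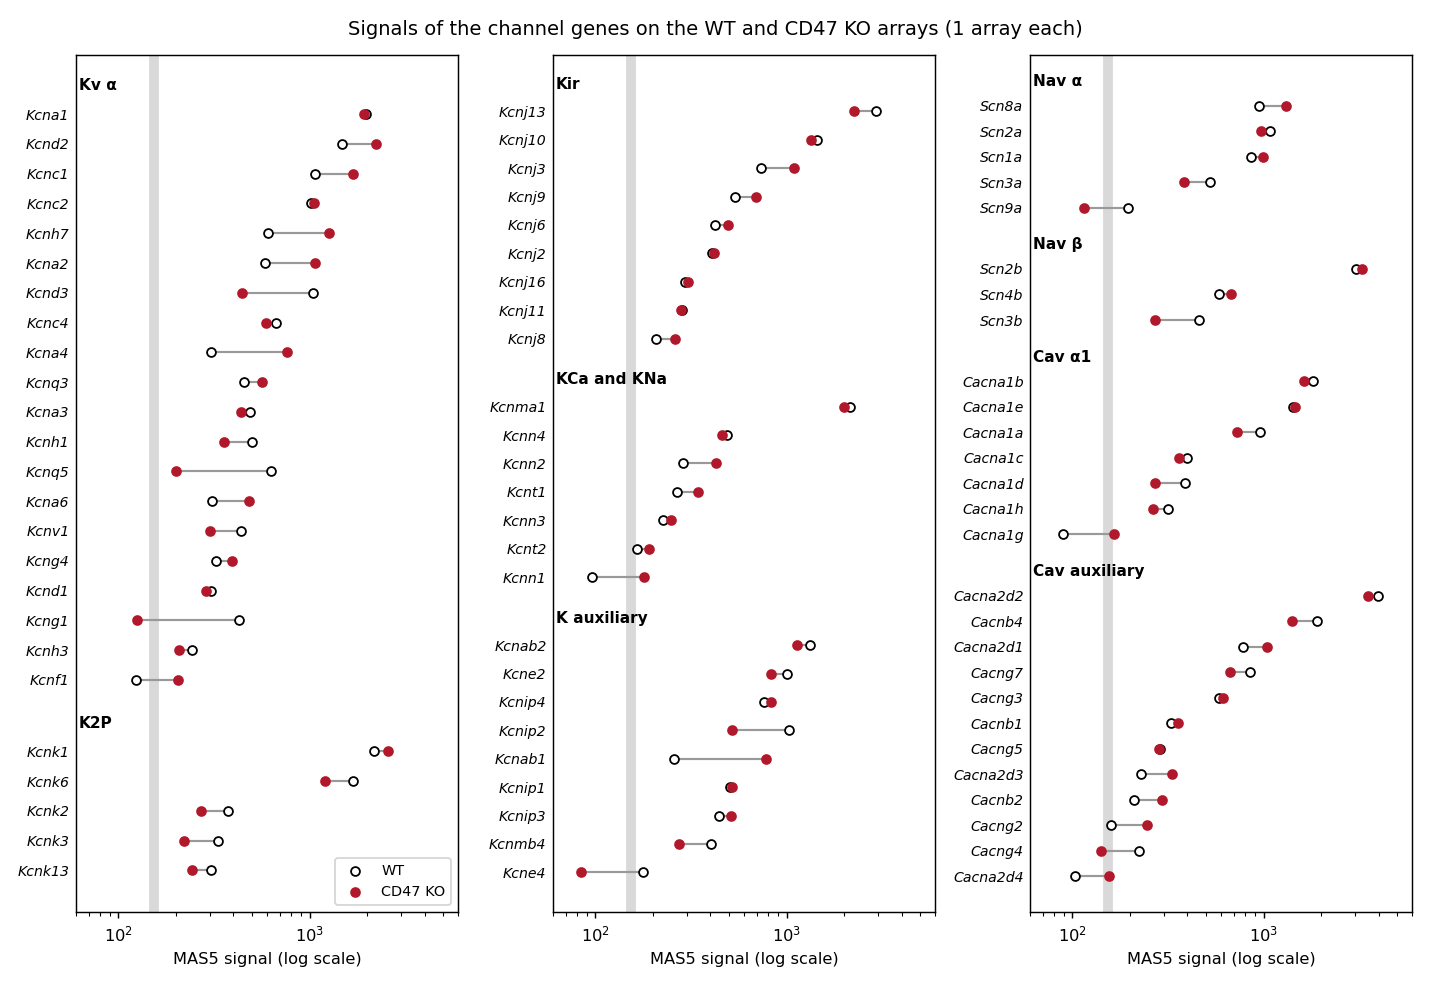
MAS5 signals (log scale) of the 77 channel genes of the 9 classes in WT (open circles) and CD47 KO (filled circles), 1 array each, with a line joining the pair of a gene and a grey band between the array medians of 146 and 161. Most pairs lie close together, and the long lines belong to *Kcna4*, *Kcnq5*, *Kcng1*, *Kcnd3* and *Kcnab1*.

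The size of the differences followed brightness. The kept genes were divided by their mean signal into 4 bins of equal size. More than 2-fold, in either direction, were 24.2% of all genes in the dimmest bin, 8.38% in the second, 2.84% in the third and 0.616% in the brightest. The channel genes fell mostly in the dimmer part: 20 in the dimmest bin, 28 in the second, 21 in the third and 9 in the brightest, and those past 2-fold numbered 2, 3, 2 and 0. The SD between probe sets of the same gene, the only error these arrays hold, was 0.80 on the Log2 scale in the dimmest bin, 0.68, 0.56 and then 0.42 in the brightest. It covers probe design and hybridisation, not the animals. On both arrays, 69 channel genes reached the median on the probe set that stood for them, of which 34 were higher in CD47 KO (median -0.01) and 5 were past 2-fold, 3 higher and 2 lower, beside a background of 3.70% of all such genes in either direction. The other 9 reached the median on 1 array, *Cacna1g*, *Cacna2d4*, *Cacng2*, *Kcnf1* and *Kcnn1* in CD47 KO, and *Cacng4*, *Kcne4*, *Kcng1* and *Scn9a* in WT. For 8 of these the rule kept the gene through the array on which it was brighter, which fixes the direction. The exception was *Cacng2*, whose other probe set reached the median on both arrays and read the opposite way (-0.32).

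**Figure D2:**
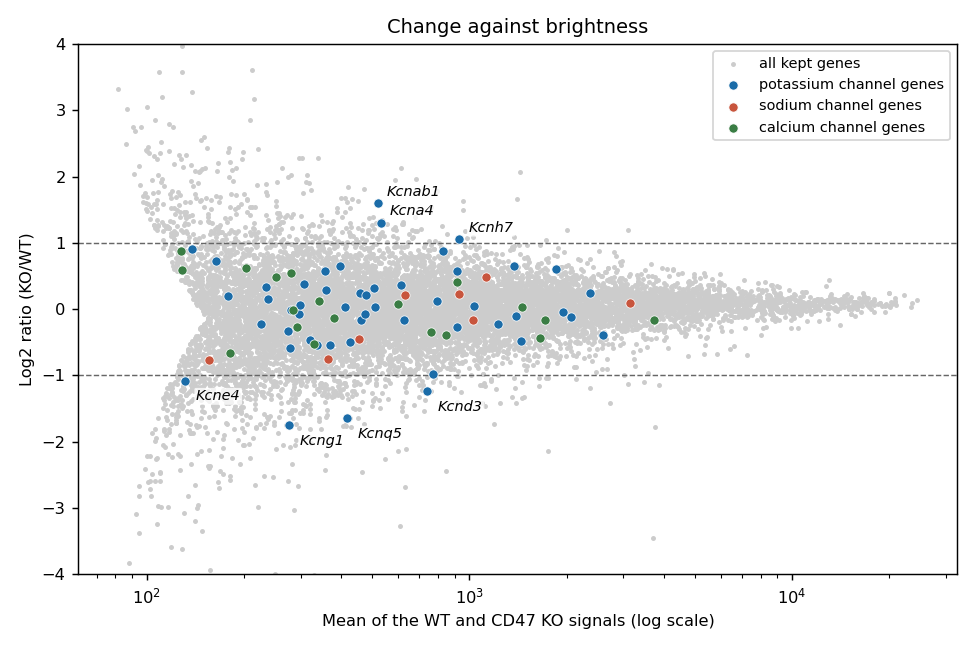
Log2 ratio (KO/WT) of each kept gene against its mean signal over both arrays (log scale), with all 11695 kept genes in grey, 15 of them outside the axis, and the potassium, sodium and calcium channel genes in blue, red and green. Dashed lines mark 2-fold, and the channel genes past it, 3 above and 4 below, lie in the dim and middle range where grey points cross the lines too.

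Higher in CD47 KO were *Kcnab1*, *Kcna4* and *Kcnh7*. *Kcnab1* codes for Kvβ1, the cytoplasmic subunit that gives Kv1 channels fast inactivation, and its signal was 258 in WT and 781 in CD47 KO (1.60). A second probe set of the gene read 282 and 401 (0.51), in the same direction and under 2-fold. *Kcna4*, the Kv1 family pore subunit that inactivates fast on its own, had 307 in WT and 757 in CD47 KO (1.30), while its other expressed probe set went the opposite way (200.1 and 158, -0.34). *Kcnh7*, an ERG-type channel, was represented by a single probe set with 606 in WT and 1257 in CD47 KO (1.05). All 3 thus read higher in CD47 KO on the brightest probe set, and for *Kcna4* the direction depended on the probe set.

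Lower in CD47 KO were *Kcnd3*, *Kcnq5*, *Kcng1* and *Kcne4*. The Kv4 family member *Kcnd3*, which carries A-type current in cell bodies and dendrites, gave 1038 in WT and 441 in CD47 KO (-1.24), and its other probe sets read -0.32 and 0.52. For *Kcnq5*, a pore subunit of the M-current that damps repetitive firing, the signal was 631 in WT and 201 in CD47 KO (-1.65), with an opposite value of 1.23 (112 and 263) on its second probe set. *Kcng1*, a silent subunit that alters Kv2 channels and forms no channel alone, had 425 in WT and 126 in CD47 KO (-1.76) on its only expressed probe set. *Kcne4*, an inhibitory β subunit of Kv1 channels, lay just inside the signal limit with 178 in WT and 84.5 in CD47 KO (-1.08). None of these 4 was lower on 2 or more probe sets by more than 2-fold.

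The promoters of the 5 genes that were past 2-fold and reached the upper quartile of an array are shown, since they are the channel genes with the largest differences at readable brightness. Each stretch runs from 250 bases before to 50 bases after the start in RefSeq (GRCm38.p6), 5′ to 3′ on the strand of the gene, at the upstream-most start where several are listed. Capitals mark the GC box GGGCGG or its reverse complement CCGCCC, the letters bound by Sp1-type factors. *Kcnab1* lies at chr3:64948962-64949261 on the plus strand, the first of 3 starts listed. *Kcna4* lies at chr2:107290339-107290638 on the plus strand. *Kcnh7* lies at chr2:63184238-63184537 on the minus strand. The stretch of *Kcnd3* lies at chr3:105451640-105451939 on the plus strand, and that of *Kcnq5* at chr1:21962601-21962900 on the minus strand, at the first of 2 starts.
Kcnab1: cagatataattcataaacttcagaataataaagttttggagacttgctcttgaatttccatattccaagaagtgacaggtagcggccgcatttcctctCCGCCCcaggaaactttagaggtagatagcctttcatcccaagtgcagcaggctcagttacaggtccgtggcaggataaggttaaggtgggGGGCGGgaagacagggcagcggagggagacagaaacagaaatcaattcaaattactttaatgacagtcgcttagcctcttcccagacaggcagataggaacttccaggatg
Kcna4: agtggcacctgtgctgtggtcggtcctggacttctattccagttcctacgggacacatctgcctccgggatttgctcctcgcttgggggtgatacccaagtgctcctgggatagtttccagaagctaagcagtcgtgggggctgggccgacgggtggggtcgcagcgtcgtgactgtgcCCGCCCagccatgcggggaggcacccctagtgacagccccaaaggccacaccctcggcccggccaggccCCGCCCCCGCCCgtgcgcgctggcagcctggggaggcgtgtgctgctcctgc
Kcnh7: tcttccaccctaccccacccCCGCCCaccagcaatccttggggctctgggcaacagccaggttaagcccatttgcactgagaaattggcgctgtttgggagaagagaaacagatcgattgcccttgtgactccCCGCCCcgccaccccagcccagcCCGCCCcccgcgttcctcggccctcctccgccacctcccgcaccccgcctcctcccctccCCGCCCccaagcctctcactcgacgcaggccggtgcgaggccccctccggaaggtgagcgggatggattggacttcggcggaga
Kcnd3: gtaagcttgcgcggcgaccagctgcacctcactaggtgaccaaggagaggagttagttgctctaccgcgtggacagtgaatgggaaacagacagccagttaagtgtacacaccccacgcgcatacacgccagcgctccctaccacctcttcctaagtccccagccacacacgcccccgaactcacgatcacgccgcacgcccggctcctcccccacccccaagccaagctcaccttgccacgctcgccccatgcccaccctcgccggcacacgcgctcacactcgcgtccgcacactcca
Kcnq5: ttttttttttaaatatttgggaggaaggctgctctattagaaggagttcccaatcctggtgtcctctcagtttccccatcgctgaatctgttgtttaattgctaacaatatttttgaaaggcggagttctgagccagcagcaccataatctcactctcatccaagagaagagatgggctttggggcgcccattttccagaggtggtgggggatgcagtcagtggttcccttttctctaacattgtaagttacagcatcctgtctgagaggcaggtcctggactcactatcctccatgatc
GC boxes numbered 2, 3 and 4 in *Kcnab1*, *Kcna4* and *Kcnh7* and 0 in *Kcnd3* and *Kcnq5*, and CpG dinucleotides numbered 7, 20, 21, 25 and 3. Of all 32851 RefSeq promoters of this length, 35.7% held a GC box on either strand, and of the 92 promoters matched to 60 of the channel genes, 40.2% did. The TATA box TATAAA, also sought on both strands, was in 13.6% of all promoters and in 6 of the 92 (6.52%), none of them among the 5 shown. The median number of CpG dinucleotides was 7 over all promoters and 9 over those of the channel genes. A match of letters is no evidence of binding, and the arrays hold no measure of it.

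Pore subunits of the Kv class numbered 20 of the 31 named with 10 higher and 10 lower, a median of 0.00 and 10 within 1.5-fold. Their Log2 ratios had an SD of 0.84, beside 0.63 over all kept genes. The *Kcna* genes, which code for the Kv1 channels of axons, did not share a direction. *Kcna1* was at nearly the same signal in both pools, 1983 in WT and 1926 in CD47 KO (-0.04), and so was *Kcna3*, the Kv1 channel of T cells and activated microglia, 489 in WT and 437 in CD47 KO (-0.16). The other probe sets of *Kcna1* read -0.07 and 0.31. *Kcna2* was higher in CD47 KO, 585 in WT and 1071 in CD47 KO (0.87), with its other 2 probe sets at 0.33 and 0.36. *Kcna6* had 309 in WT and 484 in CD47 KO (0.65) and 0.80 on its other probe set (105 and 182). That other probe set passed on the CD47 KO array alone, which fixes its direction. With it, *Kcna6* was the only channel gene with 2 or more expressed probe sets that were all more than 1.5-fold higher in CD47 KO. The background was 1.05% of the genes with 2 or more.

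The Kv3 genes, whose channels let fast-spiking neurons fire at high rates, differed between members. *Kcnc1* was higher, 1072 in WT and 1682 in CD47 KO (0.65), although its 3 other probe sets read -0.47, 0.26 and -0.32. *Kcnc2* was level at 1018 in WT and 1050.2 in CD47 KO (0.05), and *Kcnc4* read 664 in WT and 593 in CD47 KO (-0.16). Among the Kv4 genes, *Kcnd2* read 1473 in WT and 2235 in CD47 KO (0.60) with all 3 of its expressed probe sets higher, whereas *Kcnd3* was lower as given above and *Kcnd1* was level on its brightest probe set, 305 in WT and 288 in CD47 KO (-0.08), with 0.16 and 1.47 on the others. Of the M-current genes, *Kcnq3* had 451 in WT and 563 in CD47 KO (0.32) and 0.88 on its second probe set, in contrast to *Kcnq5*. The remaining Kv genes lay between -0.54 for *Kcnv1* (438 and 302), whose second probe set read 1.44, and 0.72 for *Kcnf1* (124 and 205), both silent subunits. Between them were the silent subunit *Kcng4*, 323 in WT and 394 in CD47 KO (0.29), and the EAG-type channels *Kcnh1*, 499 in WT and 355 in CD47 KO (-0.49), and *Kcnh3*, 243 in WT and 208 in CD47 KO (-0.22). The other probe set of *Kcnh1* read 0.30.

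Auxiliary subunits of potassium channels numbered 9 of 15 named (4 higher, 5 lower, median -0.22). *Kcnab2*, the Kvβ2 subunit of axonal Kv1 channels, had 1322 in WT and 1134 in CD47 KO (-0.22), so the 2 kept Kvβ genes pointed opposite ways. *Kcnip2*, a KChIP calcium sensor that partners Kv4 pores, was lower, 1024 in WT and 517 in CD47 KO (-0.99), just short of 2-fold, with -0.39 on its other probe set. Its relatives were level or slightly higher: *Kcnip1* read 503 in WT and 515 in CD47 KO (0.03), *Kcnip4* 758 in WT and 829 in CD47 KO (0.13) and *Kcnip3* 442 in WT and 512 in CD47 KO (0.21), whose second probe set was past 2-fold at 1.09. *Kcnmb4*, the neuronal β subunit of the BK channel, had 401 in WT and 275 in CD47 KO (-0.54).

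Inward rectifiers, 9 of 15 named, each differed by less than 1.5-fold between the pools (6 higher, 3 lower, median 0.06). *Kcnj10*, the Kir4 pore of astrocytes and oligodendrocytes, had 1448 in WT and 1346 in CD47 KO (-0.11), and *Kcnj16*, its partner, had 293 in WT and 305 in CD47 KO (0.06), with 0.75 on its other probe set. The 3 kept GIRK genes, whose channels are opened by G protein-coupled receptors, were all higher: *Kcnj3* read 734 in WT and 1090.4 in CD47 KO (0.57) with 0.19 and 0.24 on its other probe sets, *Kcnj9* 538 in WT and 691 in CD47 KO (0.36) and *Kcnj6* 422 in WT and 497 in CD47 KO (0.23). The other probe sets of *Kcnj9* and *Kcnj6* read -0.77 and -0.25, so that only for *Kcnj3* did all probe sets point up. Both KATP pores were kept. *Kcnj8* of pericytes and smooth muscle read 207 in WT and 261 in CD47 KO (0.33), and *Kcnj11* of neurons 283 in WT and 279 in CD47 KO (-0.02), with -0.86 on its other probe set.

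K2P leak channels numbered 5 of 12 named, of which 4 were lower (median -0.47). *Kcnk6*, the TWIK2 channel of macrophages and microglia, had 1681 in WT and 1202 in CD47 KO (-0.48). *Kcnk13*, the THIK1 channel of microglia, read 305 in WT and 243 in CD47 KO (-0.33), while *Kcnk2*, a TREK channel of astrocytes and neurons, had 373 in WT and 269 in CD47 KO (-0.47). *Kcnk3*, the acid-sensitive TASK1 channel, gave 333 in WT and 221 in CD47 KO (-0.59) with 0.51 and -0.67 on its other probe sets. The exception was *Kcnk1*, the TWIK1 channel, which was slightly higher at 2175 in WT and 2561 in CD47 KO (0.24), although its second probe set read -0.62. None of the 5 was past 2-fold, and each difference lay within 1 SD of the spread between probe sets in its brightness bin.

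Calcium- and sodium-activated potassium channels numbered 7 of 8 named (5 higher, 2 lower, median 0.20). The 3 SK genes, whose channels hyperpolarise the cell after a spike, were all higher: *Kcnn2* read 286 in WT and 427 in CD47 KO (0.58), *Kcnn3* 225 in WT and 250.1 in CD47 KO (0.15) and *Kcnn1* 96.4 in WT and 181 in CD47 KO (0.91), the last of these kept through the CD47 KO array alone. *Kcnn4*, the intermediate-conductance channel of microglia and T cells, was level at 486 in WT and 462 in CD47 KO (-0.07). *Kcnma1*, the BK pore, had 2154 in WT and 1984 in CD47 KO (-0.12), while the other 3 probe sets read -0.03, 1.26 and -1.66. The sodium-activated *Kcnt1* read 267 in WT and 345 in CD47 KO (0.37), and its relative *Kcnt2* 166 in WT and 190.3 in CD47 KO (0.20).

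**Figure D3:**
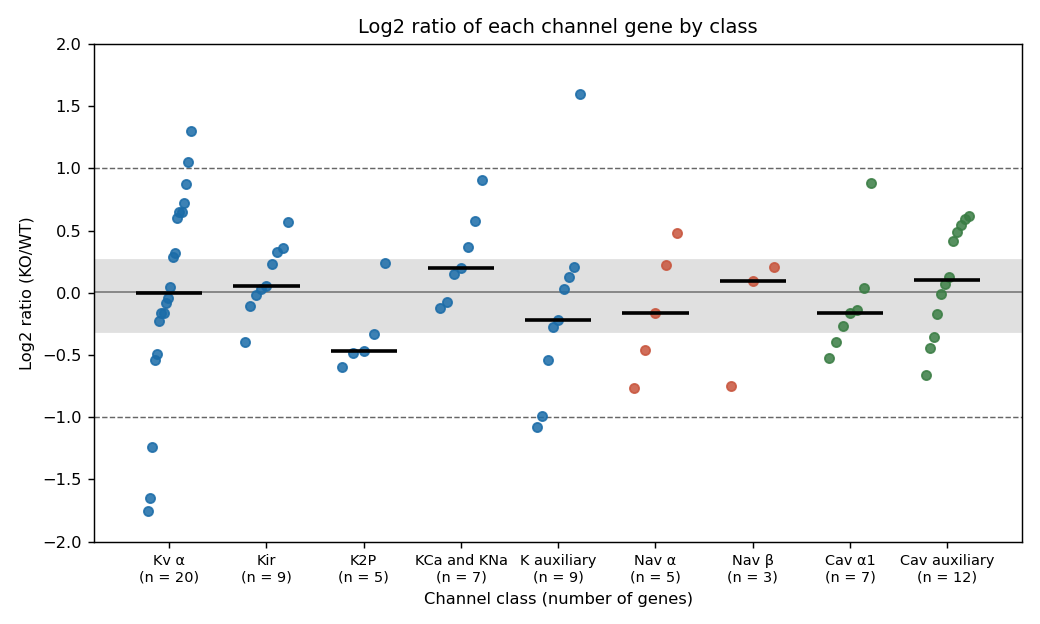
Log2 ratio (KO/WT) of each channel gene on its probe set of highest mean signal, by class, 1 point per gene and a bar at the class median, with the shaded band spanning the interquartile range of all kept genes (-0.32 to 0.26) and dashed lines at 2-fold. The Kv α and potassium auxiliary classes hold all points past 2-fold, and the K2P bar lies lowest at -0.47.

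All sodium channel differences were below 2-fold. Of the pores, 5 of 8 named were kept (2 higher, 3 lower, median -0.16). *Scn8a*, the main channel of mature axon initial segments and nodes, read 944 in WT and 1314 in CD47 KO (0.48) and 0.57, -0.83 and -0.29 on its other probe sets. *Scn1a*, the channel of fast-spiking interneurons, had 855 in WT and 998 in CD47 KO (0.22), with all 3 expressed probe sets higher. *Scn2a*, the channel of excitatory neurons, had 1082 in WT and 968 in CD47 KO (-0.16), although its 3 other probe sets were higher (0.22 to 0.43). *Scn3a*, abundant in the embryo, read 525 in WT and 382 in CD47 KO (-0.46), and *Scn9a*, the channel of sensory neurons, 197 in WT and 116 in CD47 KO (-0.77). Of the β subunits, all 3 named were kept. *Scn2b* was level at 3047 in WT and 3252 in CD47 KO (0.09), with -0.21 and -0.09 on its other probe sets, and *Scn4b* read 585 in WT and 676 in CD47 KO (0.21). *Scn3b* was lower, 457 in WT and 272 in CD47 KO (-0.75), and its second probe set gave nearly the same value (411 and 239.7, -0.78). It was the only channel gene with 2 or more expressed probe sets that were all more than 1.5-fold lower, where the background was 2.22%.

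Calcium channel pores numbered 7 of 9 named (2 higher, 5 lower, median -0.16). *Cacna1b*, the N-type channel of nerve terminals, read 1811 in WT and 1622 in CD47 KO (-0.16), *Cacna1e*, the R-type channel, 1433 in WT and 1468 in CD47 KO (0.04), and *Cacna1a*, the P/Q-type channel, 958 in WT and 729.7 in CD47 KO (-0.39), with -0.40 on its second probe set. The L-type *Cacna1c* had 399 in WT and 363 in CD47 KO (-0.14), while *Cacna1d* was lower on both of its probe sets, 389 in WT and 269.9 in CD47 KO (-0.53) on the brighter and -1.15 on the other. That dimmer *Cacna1d* probe set (301 and 135) passed on the WT array alone, which fixes its direction. Of the low-threshold T-type channels, *Cacna1h* read 318 in WT and 264 in CD47 KO (-0.27) and *Cacna1g* 89.9 in WT and 165 in CD47 KO (0.88), kept through the CD47 KO array alone. The other probe sets of *Cacna1b* read 0.14, 0.07 and -0.69, and that of *Cacna1c* read 0.49. The differences among these pores were all below 2-fold on the brightest probe set.

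Auxiliary calcium channel genes numbered 12 of 15 named (7 higher, 5 lower, median 0.10). The α2δ subunits, which carry channels to the membrane, were higher in 3 of 4 cases: *Cacna2d1* read 783 in WT and 1045 in CD47 KO (0.42), *Cacna2d3* 228 in WT and 333 in CD47 KO (0.55), *Cacna2d4* 103 in WT and 155 in CD47 KO (0.59) and *Cacna2d2* 3954 in WT and 3511 in CD47 KO (-0.17). The other probe sets of *Cacna2d1* read 0.79 and -0.51, so its direction depended on the probe set. *Cacna2d4* was kept through the CD47 KO array alone, which fixes its direction. Of the 3 α2δ genes that reached the median on both arrays, 2 were higher. The β subunits, which hold the pore at the membrane and set its gating, included *Cacnb4*, 1899 in WT and 1399.8 in CD47 KO (-0.44), and *Cacnb2*, 209.7 in WT and 294 in CD47 KO (0.49), whose second probe set read -1.14, while *Cacnb1* had 328 in WT and 358 in CD47 KO (0.13) and -0.44 on its other. The other probe sets of *Cacnb4* read -0.08 and 0.28. Of the γ-type proteins, most of which traffic AMPA receptors, *Cacng7* had 853 in WT and 668 in CD47 KO (-0.35), with 0.12 on its other probe set, and *Cacng3* 586 in WT and 617 in CD47 KO (0.07). *Cacng2*, stargazin, read 160.0 in WT and 246 in CD47 KO (0.62) with -0.32 on its second probe set, and *Cacng4* 222 in WT and 141 in CD47 KO (-0.66). *Cacng5* read 286 in WT and 284 in CD47 KO (-0.01) on its brightest probe set and 0.59 on the other.

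Probe sets of the same channel gene often disagreed. Of 46 members with 2 or more expressed probe sets (116 in all), 26 held both signs (56.5%), beside a background of 55.6% over 5499 genes. In 12 all probe sets were higher and in 8 all were lower. The range within a gene exceeded 1 on the Log2 scale in 15 members (32.6%), beside 24.4% of all genes, and its median was 0.66, beside 0.54 over all genes. At 1 or more probe sets, 12 of the 46 were past 2-fold, beside a background of 18.9%, and 8 of the 12 (66.7%) were within 2-fold on the brightest probe set, beside 76.9% of all such genes. *Kcnma1* and *Kcnq5* were past 2-fold both ways. Both *Kcnma1* probe sets past 2-fold (149 and 359, 165 and 52.2) reached the median on 1 array alone, which fixes their direction. The same holds for the *Kcnq5* probe set at 112 and 263. The counts of sign and of 2-fold differences include such probe sets, for the channel genes and for all genes. The widest range belonged to *Cacna2d2*, where a dim probe set read 197 in WT and 1.08 in CD47 KO and so passed on the WT array alone. The pooled SD between probe sets of the members was 0.94 with this gene and 0.66 without it, beside 0.55 over all genes. Of 19 members with 3 or more expressed probe sets, *Kcna2*, *Kcnd2*, *Kcnip4*, *Kcnj3* and *Scn1a* were higher on all and *Cacna2d2* was lower on all, or 31.6% of 1 sign beside 28.8% over all genes. The other 32 members had 1 expressed probe set and thus no such check, *Kcnh7*, *Kcng1* and *Kcne4* among them. *Kcnq1ot1*, the non-coding RNA, read 416 in WT and 349.9 in CD47 KO (-0.25) and 0.22 and -2.21 on its others.

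**Figure D4:**
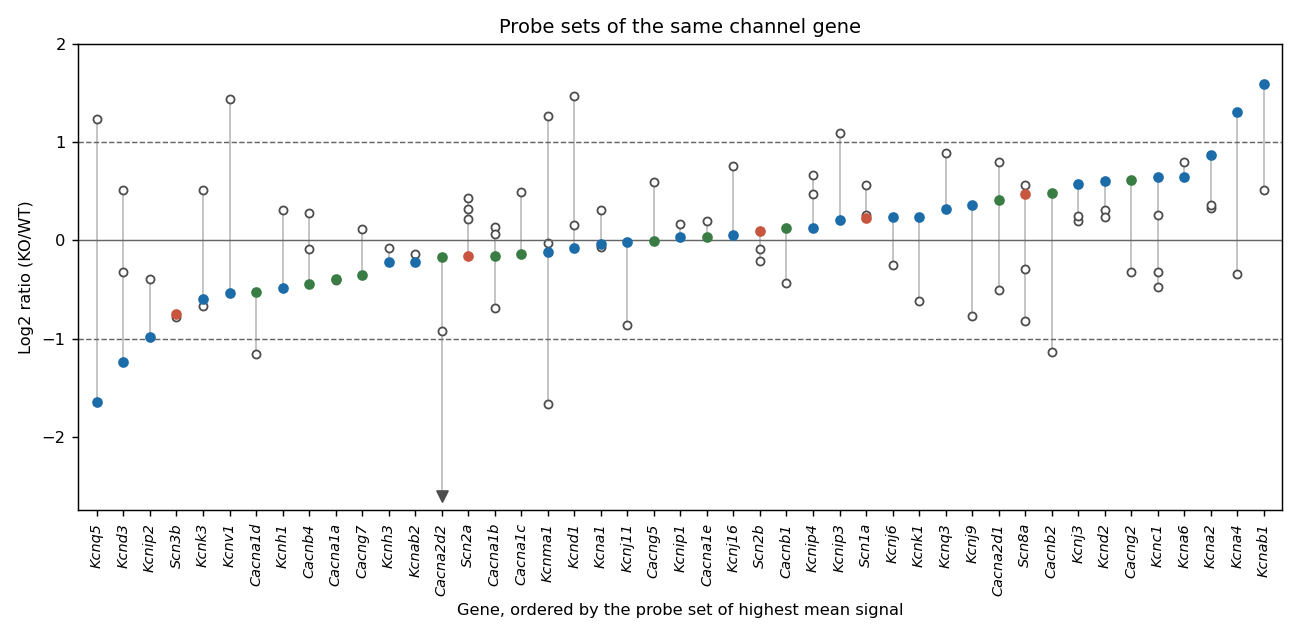
Log2 ratio (KO/WT) of every expressed probe set of the channel genes with 2 or more, 1 column per gene, with the probe set of highest mean signal filled (potassium blue, sodium red, calcium green), the others open and dashed lines at 2-fold. The columns of *Kcnq5*, *Kcnma1* and *Kcnv1* span both sides of 0 widely, and the arrow marks a probe set of *Cacna2d2* beyond the axis. A probe set that reached the median on 1 array alone has its direction fixed by that.

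Grouped by the cells they are known from, the channel genes were set beside markers of those cells. Of the 5 microglial channels (*Kcnk13*, *Kcnk6*, *Kcna3*, *Kcnj2*, *Kcnn4*), 4 were lower and *Kcnj2* was level (406 and 416, 0.03). The median of the 5 was -0.16, and their summed signal was 3367 in WT and 2759 in CD47 KO (-0.29). The 13 kept microglia markers were all higher on the brightest probe set, between 0.02 and 0.66 with a median of 0.19, and none was past 2-fold. The lowest of them, *Sall1*, read -0.58 on its other probe set. Of these markers, 12 lay within 1.5-fold, and so did all 5 channels, among them the nearly level *Kcna3* and *Kcnn4*. Each channel had 1 expressed probe set and lay within 1 SD of the spread between probe sets in its bin. Over all kept genes, 50.3% were higher in CD47 KO. Of the 10 kept channels of fast-spiking neurons and axons, 7 were higher, with a median of 0.22 and a summed signal of 9897 and 11382 (0.20), beside 8 of 14 neuron markers higher, a median of 0.04 and a difference of 0.06 in their sum. *Kcnj10*, *Kcnj16* and *Kcnk2*, the glial channels, had a median of -0.11, beside 0.28 for 9 astrocyte markers (7 higher) and -0.20 for 8 oligodendrocyte markers (4 higher).

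Channels of the choroid plexus and of vessel walls were read beside markers of those tissues. *Kcnj13*, the Kir7 channel of the choroid plexus epithelium, read 2947 in WT and 2241 in CD47 KO (-0.39), and *Kcne2*, a β subunit of the same epithelium, 1000.0 in WT and 827 in CD47 KO (-0.27). The 5 choroid plexus markers had a median of -0.34, with 3 of 5 lower. Their summed signal was level, 28969 in WT and 28169 in CD47 KO (-0.04), beside 3947 and 3068 (-0.36) for the 2 channels. *Kcnj8* was the 1 kept channel of the 3 listed for mural cells and was higher, whereas 7 of 10 mural markers were lower (median -0.51). *Abcc9*, the sulfonylurea receptor that pairs with *Kcnj8* in these cells and itself one of those markers, read 249 and 558 (1.17) on the probe set used here and -0.06 on the other. Endothelial (7 of 9 lower, median -0.38), fibroblast (7 of 8 lower, -0.82) and pituitary markers (5 of 5 lower, -2.26) were dimmer in CD47 KO as well, T cell markers were mixed (3 of 5 higher, 0.49), as were neutrophil markers (2 of 6 higher, -0.18), and none of the skeletal muscle channels and 1 of 7 muscle markers, *Tnni2*, reached the median. The part of these cells in the channel values was not tested.

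**Figure D5:**
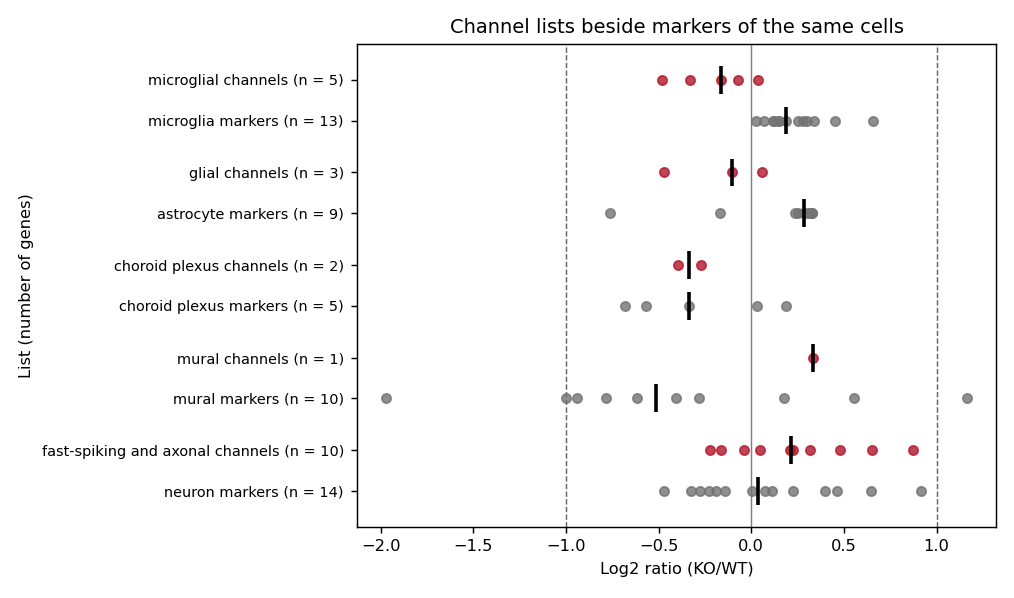
Log2 ratio (KO/WT) of channel genes (red) grouped by the cells they are known from, each list above the markers of the same cells (grey), 1 point per gene with a bar at the median and dashed lines at 2-fold. On the probe set of highest mean signal, all 13 microglia markers lie above 0 and 4 of 5 microglial channels lie below it. Of these, 12 markers and all 5 channels lie within 1.5-fold.

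Genes that work with the channels were listed for comparison. Of 27 listed partners (anchors, FGF homologues, DPP and sulfonylurea subunits, and related pores), 20 were kept and 15 were higher, with a median of 0.14. The largest differences were those of *Abcc9* (1.17, as above), of *Fgf11*, a sodium channel-binding FGF homologue (91.0 and 169, 0.89), and of *Hcn2*, a hyperpolarisation-activated channel (93.3 and 172, 0.88). *Fgf11* and *Hcn2* passed the limit on the CD47 KO array alone, which fixes their direction. Of 21 genes of other calcium entry and release routes, 19 were kept and 12 were lower, with a median of -0.20. *Trpv4*, an osmosensitive cation channel, read 235 and 85.3 (-1.46), the purinergic receptor *P2rx4* of microglia 1465 and 741 (-0.98), with values up to 0.56 on its other probe sets, and the stretch-gated *Piezo1* 117 and 259.9 (1.15). *Trpv4* passed on the WT array alone and *Piezo1* on the CD47 KO array alone. Of 18 ion pumps and exchangers, 15 were kept and 11 were higher, with a median of 0.29. The calcium pump *Atp2b4* read 91.8 and 190.4 (1.05), the sodium-calcium exchanger *Slc8a3* 193 and 307 (0.67), and *Atp1b2*, the glial sodium pump subunit, 3251 and 4944 (0.60), with 0.03 on its other probe set. *Atp2b4* likewise passed on the CD47 KO array alone. With the median reached on both arrays, 0 of 16 genes of calcium entry and release and 0 of 14 pumps and exchangers were past 2-fold.

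Channels that are built from several gene products were compared by assembly, with the groupings drawn up after the values were known. The kept Kv1 pores and Kvβ subunits numbered 7, with a median of 0.65, 4 higher and 3 lower. Of these, 2 were more than 2-fold higher (*Kcnab1* and *Kcna4*), beside 3.56% of all kept genes. The group was drawn up with both values known, so this share is no expectation for it. Both genes lay in the second brightness bin, where 8.38% of all genes were past 2-fold in either direction. The other probe sets of these 2 read 0.51 and -0.34. The kept Kv4 pores with their KChIP and DPP subunits numbered 9, with 6 higher and a median of 0.13, including *Dpp6* at 0.29 and *Dpp10* at 0.48 (1.24 on its other probe set). The BK pore and its β subunit *Kcnmb4* were both lower (-0.12 and -0.54). Of the KATP subunits, *Abcc8* was higher (232 and 298, 0.36) beside a level *Kcnj11*, and *Abcc9* and *Kcnj8* were both higher on the brightest probe set. Of the 5 kept L-, N-, P/Q- and R-type pores, all within 1.5-fold, 4 read lower on the brightest probe set and *Cacna1e* was level. Only *Cacna1a* and *Cacna1d* were lower on all of their expressed probe sets. The second probe set of *Cacna1d* passed on the WT array alone, which fixes its direction. In the order of RefSeq genes, 8 pairs of members lay next to each other, and 4 of these pairs had the same sign: *Cacng4* with *Cacng5*, *Kcnj16* with *Kcnj2*, *Scn3a* with *Scn2a*, and *Scn2b* with *Scn4b*. The other 4 pairs pointed opposite ways, among them *Kcna3* and *Kcna2* (-0.16 and 0.87) and *Scn1a* and *Scn9a* (0.22 and -0.77).

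The limit on brightness left 41 named channel genes out. The 3 members just inside it were *Cacna2d4*, whose higher signal was 1.06 times the median of its array, *Kcne4* (1.11 times) and *Cacna1g* (1.13 times). The 3 genes just outside were *Kcnj4* (131 and 140.3, 0.960 times), *Kcnk10* (147 and 124, 0.913 times) and *Kcns2* (145 and 95.1, 0.901 times). Genes left out included channels of the heart and of peripheral sensory neurons, *Kcna5*, *Kcnq1*, *Scn10a* and *Scn11a* among them, as well as *Cacna1s* and *Cacng1* of skeletal muscle. At these signals an absence of RNA cannot be told from a dim probe set.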

How the data were processed

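RNA of brain mononuclear cells was measured on 1 array per genotype, each from pooled animals. The deposited signal intensities had been computed by the authors with the MAS5 algorithm in Expression Console (version not given in the sources used here), each array scaled to the same trimmed mean. Of 45101 probe sets, 64 were controls, 34958 carried 1 gene symbol in the platform annotation, 932 several and 9211 none there; only those with 1 were used. A probe set was called expressed if it reached the median of its array on at least 1 array. Log2 ratios (KO/WT) were formed without an offset and without further normalization in Python 3.11.15 (pandas 2.3.3, numpy 2.4.6), and the scripts were tested on simulated data. The number of arrays limits the precision. Symbols are those of the platform annotation and can be old. A dim probe set can be low in affinity rather than in target, and MAS5 signals of dim probe sets are noisy, which widens their ratios.

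Members were named if past 2-fold and in the brightness range above the upper quartile of an array, brightest or most extreme in their class, past 1.5-fold on all of several probe sets, on a cell type list or next to the signal limit, and up to 3 genes were named on each list of partners; other members were named after their values were seen. The members and lists were chosen with earlier results of these data known. Alternatives were 3 signal limits, 3 normalizations (median centring, quantile, loess in statsmodels 0.14.6), 2 treatments of low signals, the mean over probe sets, any probe set, and leaving out probe sets that can match several transcripts.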

Additional observations from a re-analysis of the deposited data

How the results depend on the processing

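Of 132 summary values under the alternatives (counts past 2-fold, shares higher and medians), 124 stayed within the tolerance set for them. A count could differ up to 1.5-fold, and a median or share had to stay in the 95% interval of the reported value. For the smaller classes this interval spanned all members of the class, so it says little about whether a class median held. Class medians that changed sign are among the 124. Members more than 2-fold higher in CD47 KO numbered 3 as reported, 5 after quantile normalization, 5 after loess, 6 when any expressed probe set counted and 12 of 119 without a signal limit. Members more than 2-fold lower numbered 4 as reported, 7 with any expressed probe set, 10 without a signal limit, 2 of 36 at the 75th percentile and 2 of 70 with the median required on both arrays. *Kcnma1* and *Kcnq5*, past 2-fold both ways, are in neither count for any expressed probe set, where 6.52% of all genes were higher and 8.995% lower. Without a limit, 8.18% of all genes were past 2-fold higher and 12.2% lower. After quantile normalization 4.35% of all genes were past 2-fold higher, and after loess 4.57%. At the 75th percentile 2.12% of all genes were past 2-fold lower, and with the median required on both arrays 2.41%. Dimmer genes enter or leave with the limit by its construction. Averaged over probe sets, *Kcna4* read 0.48, *Kcnd3* -0.35, *Kcnq5* -0.21, *Kcnc1* 0.03, *Kcnk1* -0.19 and *Cacna2d2* -2.87, and *Cacng2* read -0.32 with the median required on both arrays. The medians of K2P (-0.47 to -0.12), potassium auxiliary and calcium pore genes were below 0 under every alternative run. The K2P value of -0.12 came from the 75th percentile, where only *Kcnk1* and *Kcnk6* were left of that class. At the 75th percentile the only calcium- or sodium-activated potassium channel left was *Kcnma1*, so the median of -0.12 is its own value. At that limit the auxiliary calcium channel median was -0.17 and the sodium channel pore median 0.22, on fewer genes. Averaged over probe sets, the Kir median was -0.01 and the sodium β median -0.07. The Kv median lay between -0.04 and 0.32, the latter at the 75th percentile, and the median of all members between -0.02 and 0.05. No paired analysis was possible because each genotype has 1 array, and no replicate could be left out.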
